A study of Mus musculus with 24 samples.

Results

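The comparison described here sets the hippocampus of brain-injured mice that were given high-dose recombinant erythropoietin (injured EPO, 6 arrays) against that of sham-injured mice that were not (sham none, 6 arrays). These are 12 of the 24 arrays of the series, chosen by the status and treatment that the labels give and by no measured value. Erythropoietin (EPO) is best known as the hormone behind red cell production, and the pair asks what still sets treated, injured tissue apart from uninjured, untreated tissue. All mice were BALB-c pups aged 10 days, and 1 Affymetrix Mouse Exon 1.0 ST array was hybridised with RNA of the right hippocampus, the side on which the carotid artery is ligated in this injury model. The other groups are brain-injured without EPO (injured none, 6 arrays) and sham-injured with EPO (labelled sham EPO, 6 arrays). The sample titles allow a reading that exchanges those last groups, so the second is called labelled sham EPO throughout, and injured EPO and sham none are the same under both readings. The sources used here give no dose, no dosing schedule and no day of injury. Each group differs from sham none in injury, in EPO or in both, so in injured EPO the contributions of injury and EPO cannot be told apart by this pair alone.

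After injury of the newborn brain, astrocytes and microglia take on reactive states. Reactive astrocytes make more of the intermediate filaments Gfap and vimentin and secrete protease inhibitors and acute-phase proteins, partly under STAT3. Microglia, the resident macrophages of the brain, take up debris, make lysosomal proteins and the C1q complement subunits, and release chemokines that attract other immune cells. Neurons of the hippocampus, above all pyramidal cells, are sensitive to loss of oxygen and blood flow, and their transcripts drop when they are lost. EPO acts through its receptor, JAK2 and STAT5. In bulk tissue, fewer cells of a type and less RNA per cell cannot be told apart.

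The table held 23238 rows of log2 values, of which 14939 carry 1 gene symbol. Medians of the arrays lay between 5.05 and 5.43, and the correlation of array pairs between 0.952 and 0.993. The mean correlation of an array with the others of its own group was 0.974 to 0.985 in injured EPO and 0.983 to 0.989 in the other groups. Injured EPO replicate 3 had the lowest upper quartile in its group, 7.05 against 7.44 to 7.68 on the other injured EPO arrays, and its median difference from the sham none mean over all rows with 1 symbol was -0.19, against 0.02 to 0.12 on the others. Sham none replicate 5 read 6.52 for Ttr, a choroid plexus gene, where the other sham none arrays read 12.67 to 12.95. Eif2s3y, a Y-linked gene, was above 5 on 2 of 6 injured EPO arrays, replicates 1 and 5, and on 3 of 6 sham none arrays. Neurod6 and Prox1, transcription factors of pyramidal and granule neurons of the hippocampus, read 9.20 to 10.70 and 6.91 to 8.23 in injured EPO, against 9.76 to 10.40 and 7.76 to 8.21 in sham none.

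No row passed the threshold between injured EPO and sham none. In limma, with 1 mean per group over all 24 arrays and Benjamini-Hochberg adjustment over all rows, 0 of 23238 rows (0%) had an adjusted p under 0.05, and the smallest adjusted p was 0.564. At an unadjusted p under 0.05 there were 1374 rows (5.91%), with 950 higher in injured EPO (4.09%) and 424 lower (1.82%). Without injured EPO replicate 3 there were 2705 such rows, and 1 row, Tmem176b, had an adjusted p of 0.0417 in limma. Without replicate 6 there were 1593, and 1 unnamed row had an adjusted p of 0.0159. With only the arrays of these 2 groups in the limma fit there were 1080, and the smallest adjusted p was 0.982. Among the rows with 1 symbol, 22 had a mean at least 2-fold higher in injured EPO and 1 had a mean at least 2-fold lower. The 95% interval of the difference lay within 2-fold in both directions for 14713 of the 14939 rows (98.5%). It reached a 2-fold higher level for 197 rows and a 2-fold lower level for 39. The replicates are separate mice, so the spread behind each test joins differences between mice, dissections and arrays.

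The 84 measured genes of 6 glial and inflammatory lists (reactive astrocyte, phagocytic microglia, complement, cytokine and chemokine, interferon and MHC class I, and perivascular macrophage) had a median difference of 0.45 on the log2 scale between injured EPO and sham none, against 0.04 for all rows with 1 symbol. The difference was above 0 for 79 of the 84, beside 9390 of the 14939 rows with 1 symbol (62.9%), and none passed the adjusted test. The counts of higher means in the lists below are to be read beside that 62.9%. For injured none minus sham none, the median difference of the 84 was 0.16, against 0.10 for all rows with 1 symbol. At an unadjusted p under 0.05, 46 of the 84 were higher in injured EPO and 0 were lower. Of the 14939 rows with 1 symbol 747 were higher and 170 lower. The lists of this report were chosen with earlier results of these data known. Such counts therefore describe the lists and are no independent test of them. The values of the 84 genes did not sit evenly over the 6 injured EPO mice. Replicates 2, 4 and 5 were high, replicate 1 was somewhat above sham none, and replicate 6 was close to it. On replicate 3, 22 of the 84 genes (26.2%) lay below every sham none array and 12 (14.3%) above. Over all rows with 1 symbol 43.2% lay below on that array.

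The list score shows this for each array. It is the mean, over the measured members of a list, of the difference from the sham none mean on the log2 scale. The reactive astrocyte score was 0.26, 1.22, -0.09, 1.40, 0.58 and 0.14 on injured EPO replicates 1 to 6, against -0.22 to 0.18 on the sham none arrays. The complement score was 0.27, 1.19, -0.25, 1.44, 0.92 and 0.14 on the same injured EPO arrays, against -0.27 to 0.20 in sham none. The cytokine and chemokine score was 0.10, 1.24, 0.06, 1.42, 0.61 and 0.15 in injured EPO, against -0.05 to 0.05 in sham none. On each of these scores replicate 4 was the highest and replicate 2 the next. Replicates 1, 2, 4 and 5 lay above every sham none array on each of them. On the cytokine and chemokine score all 6 injured EPO arrays did, the lowest at 0.06 against a sham none highest of 0.05. After quantile normalization these 2 values were 0.11 and 0.06. Replicate 3 was the lowest injured EPO array on these 3 scores as deposited. With each array centred on its median, replicate 3 had a cytokine and chemokine score of 0.20 and replicate 1 was the lowest at 0.08, against -0.07 to 0.07 in sham none. On that scale replicate 3 was still the lowest for the reactive astrocyte score (0.05) and the complement score (-0.11).

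**Figure D1:**
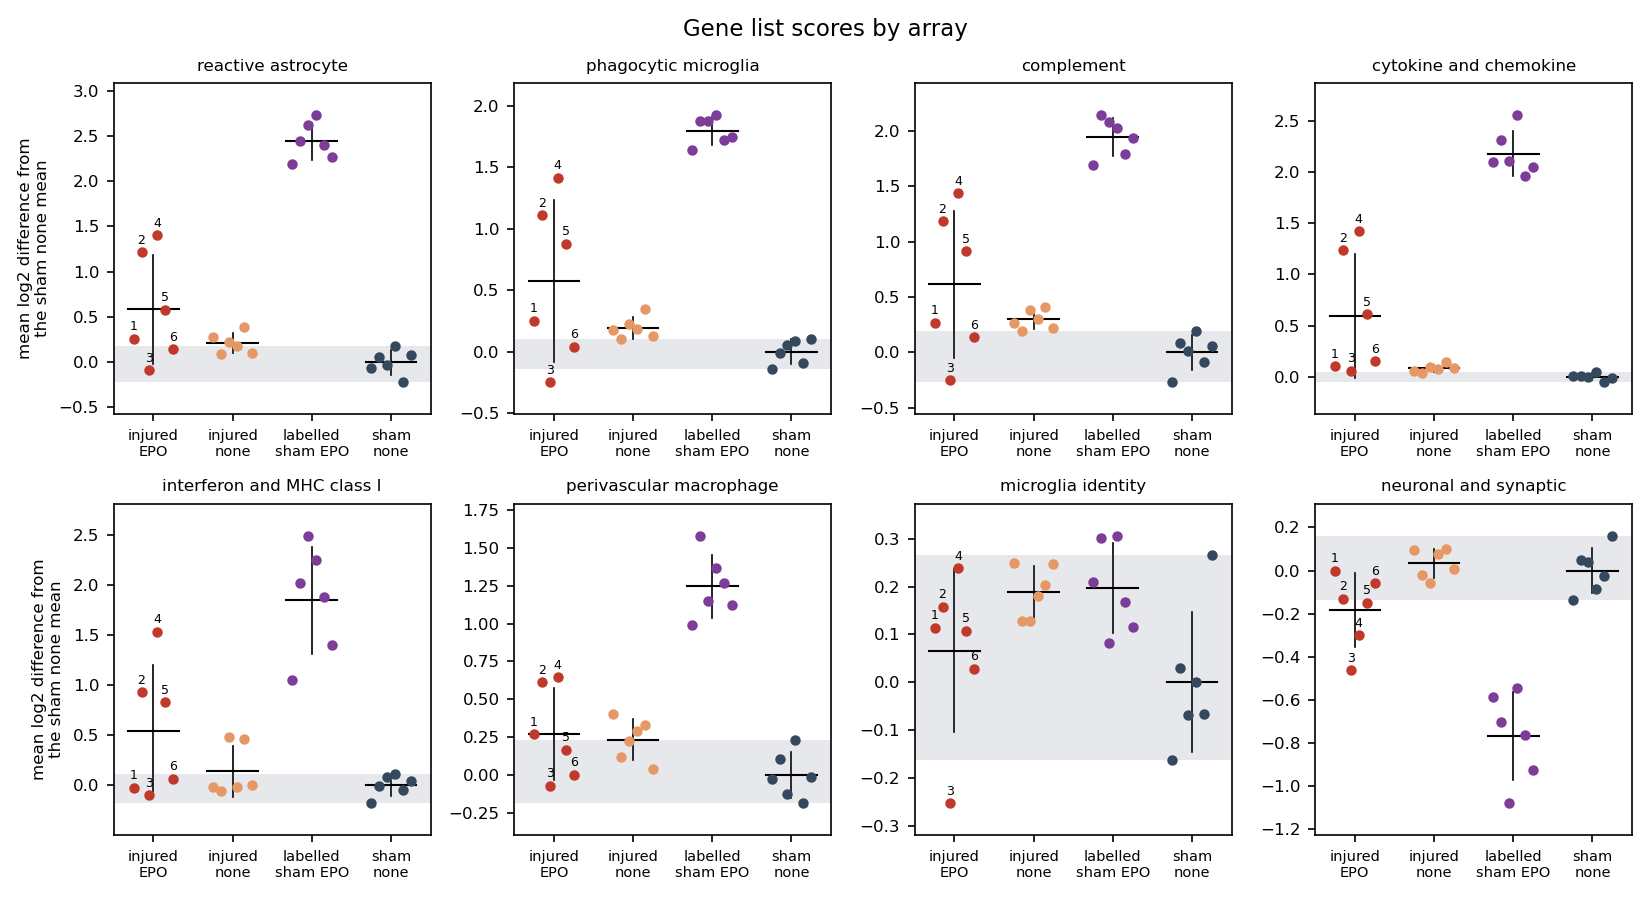
List scores of each array by group (mean log2 difference of the list's members from the sham none mean). Points are arrays, with injured EPO points numbered by replicate, bars are group means with vertical lines of 1 SD, and the grey band is the range of the sham none arrays. Injured EPO replicates 2 and 4 stand above the band in the reactive astrocyte panel at 1.22 and 1.40, while replicate 3 is at -0.09.

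Of the 20 reactive astrocyte genes measured, 18 had a higher mean in injured EPO, with a median difference of 0.54, and 12 had an unadjusted p under 0.05, all higher. Gfap, the intermediate filament that defines reactive astrocytes, read 9.71, 10.92, 8.63, 11.62, 10.74 and 9.02 on injured EPO replicates 1 to 6, against 8.83, 8.90, 9.07, 9.30, 8.58 and 8.96 on sham none replicates 1 to 6. Injured EPO replicates 1, 2, 4 and 5 lay above every sham none array, and replicates 3 and 6 lay within the sham none range. The difference in mean was 1.16 ± 0.33 (SE), with a limma adjusted p of 0.681, and it was 1.46 without replicate 3 and 0.86 without replicate 4. Timp1, a secreted inhibitor of metalloproteinases, read 4.22, 6.78, 3.65, 6.68, 5.05 and 3.51 in injured EPO, against 3.30 to 3.90 in sham none, a difference of 1.40 ± 0.42. The high arrays were the same 4 as for Gfap. Tgm1, a transglutaminase, differed by 1.27 ± 0.40, with 4.49, 7.06, 4.57, 7.48, 5.01 and 4.30 in injured EPO against 3.91 to 4.53 in sham none. Vim, the filament vimentin, differed by 1.08 ± 0.28, and Lcn2, the acute-phase protein lipocalin 2, by 1.12 ± 0.42. Lcn2 read 3.75, 6.99, 3.73, 5.54, 4.32 and 4.05 in injured EPO, against 3.34 to 3.90 in sham none, and its difference was 0.67 without replicate 2. Clcf1, a cytokine of the interleukin-6 family, was above every sham none array on all 6 injured EPO arrays, with a difference of 0.55 ± 0.17.

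Genes of astrocyte identity were counted apart. Of 14 measured, 7 had a higher mean in injured EPO, and the median difference was 0.01. Aqp4, the water channel of astrocyte end-feet, was 0.48 ± 0.15 higher, with 5 of 6 injured EPO arrays above every sham none array. The glutamine synthetase gene Glul differed by -0.13 ± 0.22 and the glycolytic enzyme gene Aldoc by -0.01 ± 0.08. No difference in this list passed the adjusted test.

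Promoters are shown for 3 genes of the higher lists, to set the letters of their start regions beside their values. The sequences are from RefSeq, build GRCm38.p6, and run from 250 bases before to 50 bases after the gene's start, 5′ to 3′ on the gene's strand. Capitals mark matches, on either strand, to TTCNNNGAA, the motif that STAT factors bind, and to the core of interferon response elements, 2 GAAA blocks with 2 bases between them. Gfap lies at chr11:102897151-102897450 on the minus strand and holds 1 STAT match. Tgm1 lies at chr14:55713443-55713742 on the minus strand and holds 2 STAT matches and 1 interferon response match. Ifitm3, an interferon-induced membrane protein that blocks viral entry, lies at chr7:141010695-141010994 on the minus strand and holds 1 STAT match and 2 interferon response matches, of which the last overlaps the STAT match in 1 run of capitals.
Gfap: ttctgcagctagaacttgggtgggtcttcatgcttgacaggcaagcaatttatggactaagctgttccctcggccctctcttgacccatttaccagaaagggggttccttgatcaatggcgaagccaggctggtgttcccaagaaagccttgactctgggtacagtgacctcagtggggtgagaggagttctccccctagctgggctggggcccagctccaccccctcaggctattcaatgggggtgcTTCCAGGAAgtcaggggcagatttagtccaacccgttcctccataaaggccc
Tgm1: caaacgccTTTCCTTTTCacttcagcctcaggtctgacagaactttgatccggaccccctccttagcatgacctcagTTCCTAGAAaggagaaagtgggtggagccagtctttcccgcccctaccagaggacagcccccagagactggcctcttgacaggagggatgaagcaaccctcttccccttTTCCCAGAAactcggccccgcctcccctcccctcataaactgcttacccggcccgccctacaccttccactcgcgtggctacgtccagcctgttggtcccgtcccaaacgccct
Ifitm3: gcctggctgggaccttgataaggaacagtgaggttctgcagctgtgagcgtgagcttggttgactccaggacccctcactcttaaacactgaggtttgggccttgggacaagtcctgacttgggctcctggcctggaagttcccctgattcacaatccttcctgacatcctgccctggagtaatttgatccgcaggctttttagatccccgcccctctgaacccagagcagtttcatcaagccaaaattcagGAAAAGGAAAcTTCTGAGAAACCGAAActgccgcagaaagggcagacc
The STAT motif was in the promoters of 5 of the 17 reactive astrocyte genes with a promoter in the RefSeq table (29.4%), 9 of 65 genes of the 6 glial and inflammatory lists (13.8%), and 9.55% of all 27025 genes in that table. By list it was in 0 of 13 phagocytic microglia genes, 0 of 14 cytokine and chemokine genes, 0 of 6 perivascular macrophage genes, 1 of 4 complement genes and 3 of 11 interferon and MHC class I genes. The interferon response motif was in 6 of 11 genes of the interferon and MHC class I list (54.5%), against 3.99% of all genes. A match describes the letters only.

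Of the 17 phagocytic microglia genes measured, 16 had a higher mean in injured EPO, the median difference was 0.45, and 12 had an unadjusted p under 0.05. Cd68, a lysosomal membrane protein of phagocytes, read 7.56, 8.80, 6.23, 9.80, 8.64 and 6.86 on injured EPO replicates 1 to 6, against 6.51 to 7.20 in sham none. Replicates 1, 2, 4 and 5 were above every sham none array, replicate 6 was within their range, and replicate 3 was below it. The difference was 1.15 ± 0.37. Plin2, which coats lipid droplets, read 7.18, 9.25, 6.23, 9.91, 8.67 and 6.63 in injured EPO, against 6.05 to 6.83 in sham none, a difference of 1.41 ± 0.42, which was 1.30 without sham none replicate 5. Gpnmb, a glycoprotein of phagocytes loaded with lipid or debris, was the member of this list above every sham none array on all 6 injured EPO arrays. Its values were 4.41, 5.63, 3.91, 5.63, 5.46 and 3.97, against 3.46 to 3.86 in sham none, and the difference was 1.11 ± 0.28 (limma adjusted p = 0.658). The lysosomal protease genes Ctsb, Ctsd and Ctsz differed by 0.38 ± 0.12, 0.48 ± 0.15 and 0.87 ± 0.30, and the galectin Lgals3 by 0.72 ± 0.20. Msr1, a scavenger receptor, had 3 injured EPO arrays above and 3 below every sham none array.

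Of 8 complement genes measured, 7 had a higher mean in injured EPO and 4 had an unadjusted p under 0.05. C1qa, a subunit of the C1q recognition molecule, read 8.14, 9.26, 7.55, 9.28, 9.05 and 7.93 in injured EPO, against 7.36, 7.71, 7.46, 7.71, 7.49 and 7.85 in sham none. Every injured EPO array but replicate 3 was above all sham none arrays, and the difference was 0.94 ± 0.22 (limma adjusted p = 0.658). C1qb and C1qc, the other subunits, differed by 0.82 ± 0.34 and 0.80 ± 0.25. C3ar1, the receptor for the C3a fragment, read 5.08, 7.34, 3.69, 8.39, 7.11 and 4.66 in injured EPO, against 3.88 to 4.65 in sham none, a difference of 1.74 ± 0.51. Genes of resting microglia were mixed. In the microglia identity list, 8 of 15 measured genes had a higher mean, the median difference was 0.01, and at an unadjusted p under 0.05 Irf8, a myeloid transcription factor (0.45 ± 0.14), and Fcrls, an Fc receptor-like scavenger gene (0.50 ± 0.19), were higher while Selplg, the P-selectin ligand (-0.39 ± 0.17), was lower. P2ry12 and Tmem119, which mark homeostatic microglia, differed by -0.10 ± 0.11 and -0.13 ± 0.17.

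The largest difference among rows with 1 symbol was in Ccl3, a chemokine made by activated microglia. Ccl3 read 3.82, 9.10, 3.39, 10.63, 8.09 and 3.77 on injured EPO replicates 1 to 6, against 3.58, 3.73, 3.80, 3.57, 3.42 and 3.81 in sham none. Replicates 2, 4 and 5 were far above every sham none array, replicate 1 was just above them, replicate 6 was within their range and replicate 3 below it. The difference was 2.81 ± 0.87, with a 95% interval of 1.01 to 4.62 and a limma adjusted p of 0.702. The SD was 3.18 over the injured EPO arrays, against 0.15 over the sham none arrays. The SE and interval rest on 1 spread shared by the 4 groups, so they are narrower than the injured EPO spread would give. Ccl9, a chemokine for monocytes, read 3.69, 7.50, 3.22, 8.02, 4.56 and 3.68 in injured EPO and differed by 1.71 ± 0.58, and by 1.13 without replicate 4. Of 20 cytokine and chemokine genes measured, 19 had a higher mean in injured EPO and 12 had an unadjusted p under 0.05. Il1rn, which blocks the interleukin-1 receptor, was above every sham none array on all 6 injured EPO arrays (0.40 ± 0.19), while Il6 and Il1b differed by 0.01 ± 0.07 and 0.07 ± 0.30.

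All 12 interferon and MHC class I genes had a higher mean in injured EPO, with a median difference of 0.56, and 5 had an unadjusted p under 0.05. Ifitm3, whose promoter is printed above, read 7.42, 8.84, 6.95, 9.86, 8.80 and 7.41 in injured EPO, against 6.62 to 7.51 in sham none, a difference of 1.06 ± 0.35. Only replicates 2, 4 and 5 were above the sham none range. Psmb9, a subunit of the immunoproteasome, and Tap1, a peptide transporter for MHC class I, each had 5 injured EPO arrays above every sham none array, with differences of 0.32 ± 0.11 and 0.40 ± 0.16. The interferon score was -0.02, 0.93, -0.10, 1.54, 0.83 and 0.07 on injured EPO replicates 1 to 6, against -0.18 to 0.11 in sham none. Without replicate 4 the median difference of the list was 0.33. The perivascular macrophage genes had a median difference of 0.25 over 7 genes, all with a higher mean. Their median for injured none minus sham none was near that, 0.23. Lyve1 and F13a1, markers of border macrophages, each differed by 0.42 ± 0.23. In injured none they differed from sham none by 0.29 ± 0.23 and 0.45 ± 0.23. For Lyve1 replicates 2 and 4 alone were above sham none, at 4.82 and 5.07 against 3.38 to 3.90, and the difference was 0.28 without replicate 2 and 0.23 without replicate 4.

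Markers of blood cells were read beside these lists. The 16 blood leukocyte genes had scores of -0.05, 0.12, 0.26, 0.06, -0.07 and 0.17 on injured EPO replicates 1 to 6, against -0.14 to 0.13 in sham none, with 1 of 16 higher and 0 lower at an unadjusted p under 0.05. The 1 was Ptprc, the pan-leukocyte antigen that microglia also carry (0.36 ± 0.16). The highest leukocyte score was on replicate 3, the lowest array for most glial scores. S100a8 and S100a9, which mark neutrophils, differed by -0.02 ± 0.32 and 0.06 ± 0.26, and the T cell gene Cd3e by 0.03 ± 0.14.

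**Figure D2:**
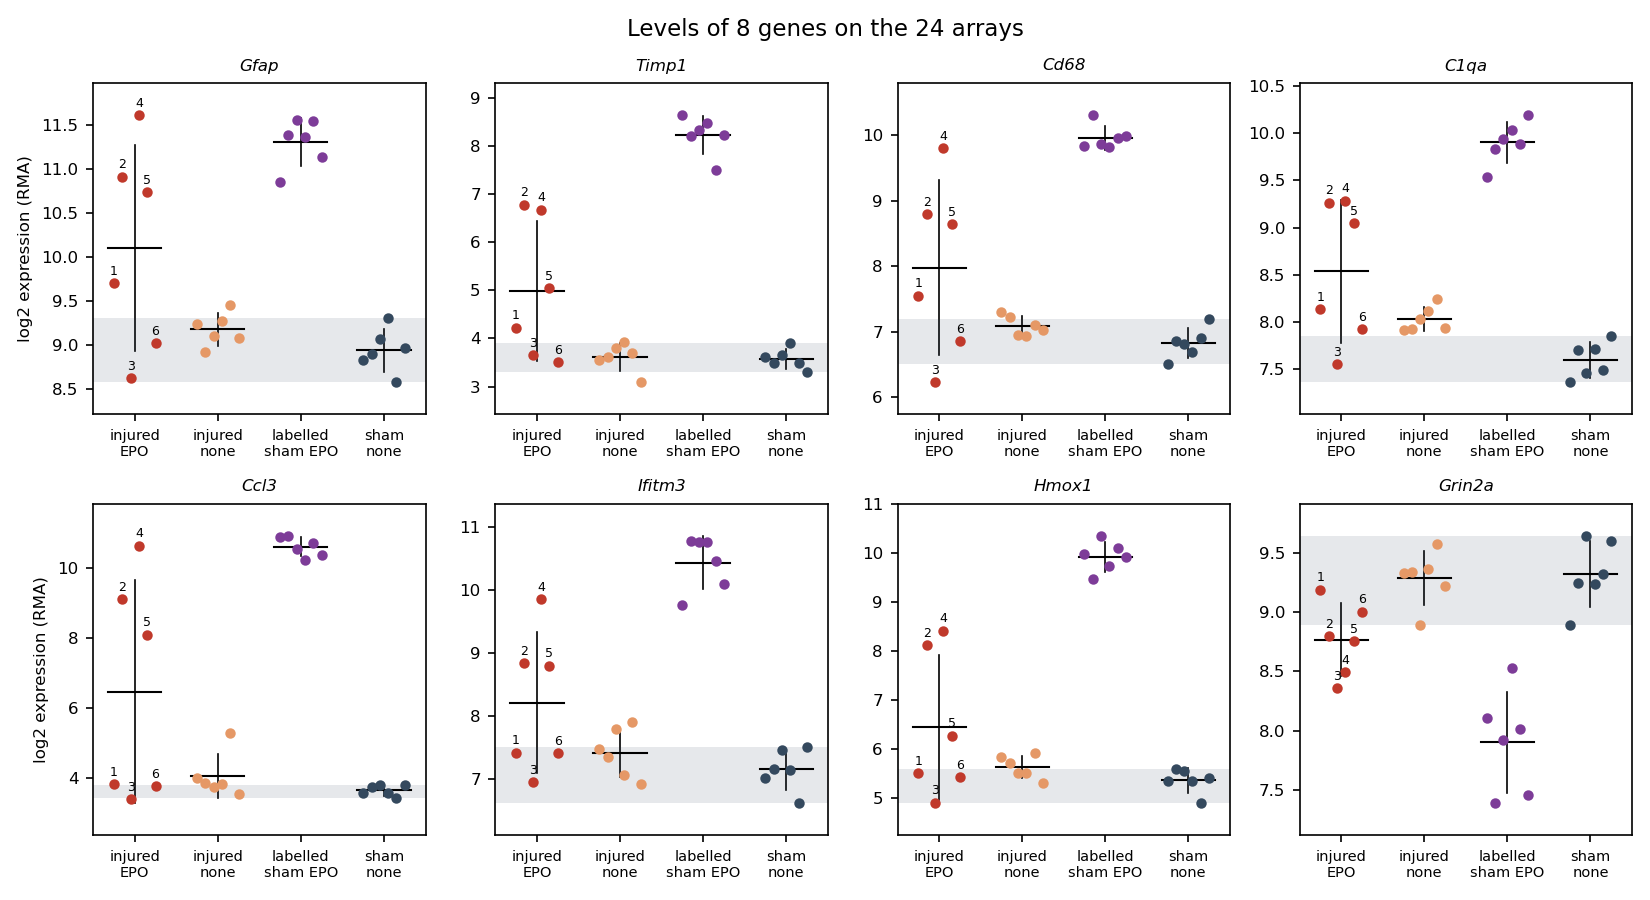
Log2 expression of 8 genes on each array by group. Points are arrays, with injured EPO points numbered by replicate, bars are group means with vertical lines of 1 SD, and the grey band is the range of the sham none arrays. Ccl3 reached 10.63 on injured EPO replicate 4 and 3.39 on replicate 3, against 3.42 to 3.81 in sham none.

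The count of genes outside the sham none range gives the same description by array. Of the 84 glial and inflammatory genes, 33 (39.3%), 68 (81%), 12 (14.3%), 69 (82.1%), 55 (65.5%) and 20 (23.8%) lay above every sham none array on injured EPO replicates 1 to 6. For all 14939 rows with 1 symbol the shares were 13.5%, 28.1%, 12.5%, 34.4%, 26% and 15%. Replicates 2, 4 and 5 thus had most of these glial genes above the range, replicate 1 fewer, and replicate 3 about the share of all rows. The shares of the 84 below every sham none array were 4.76%, 1.19%, 26.2%, 1.19%, 2.38% and 4.76% on injured EPO replicates 1 to 6. Those of all rows with 1 symbol were 5.07%, 6.14%, 43.2%, 9.04%, 11.2% and 8.7%. On the 6 injured none arrays the share of the glial genes above every sham none array ran from 22.6% to 53.6%, and that of all rows with 1 symbol from 16.8% to 31%. Replicate 4 was the highest injured EPO array for 57 of the 84 genes (67.9%), where it was the highest for 31.6% of all rows with 1 symbol. Replicate 3 was the lowest for 46 (54.8%), where it was the lowest for 53.4% of all rows with 1 symbol.

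Counted by gene, 7 of the 84 were above every sham none array on no injured EPO array, 7 on 1, 10 on 2, 25 on 3, 23 on 4, 9 on 5 and 3 on all 6. The 3 were Gpnmb, Clcf1 and Il1rn. For 0 to 6 arrays the shares of the 84 were 8.33%, 8.33%, 11.9%, 29.8%, 27.4%, 10.7% and 3.57%. Those of all rows with 1 symbol were 35.1%, 27.1%, 19.3%, 11.6%, 5.33%, 1.35% and 0.141%. Over all 23238 rows, 28 (0.12%) lay above every sham none array on all 6 injured EPO arrays and 12 (0.0516%) lay below. The SD of the 84 glial genes had a median of 0.546 over the injured EPO arrays, against 0.197 over the sham none arrays, and it was the larger in injured EPO for 72 of the 84. For all rows with 1 symbol it was the larger in injured EPO for 10782 of 14939 (72.2%). The limma fit shares 1 spread per row over the 4 groups. For genes with a larger spread in injured EPO than in the other groups, the SE, interval and unadjusted p given here can therefore be too small. Gfap, with an SD of 1.17 in injured EPO and 0.24 in sham none, is such a gene.

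**Figure D3:**
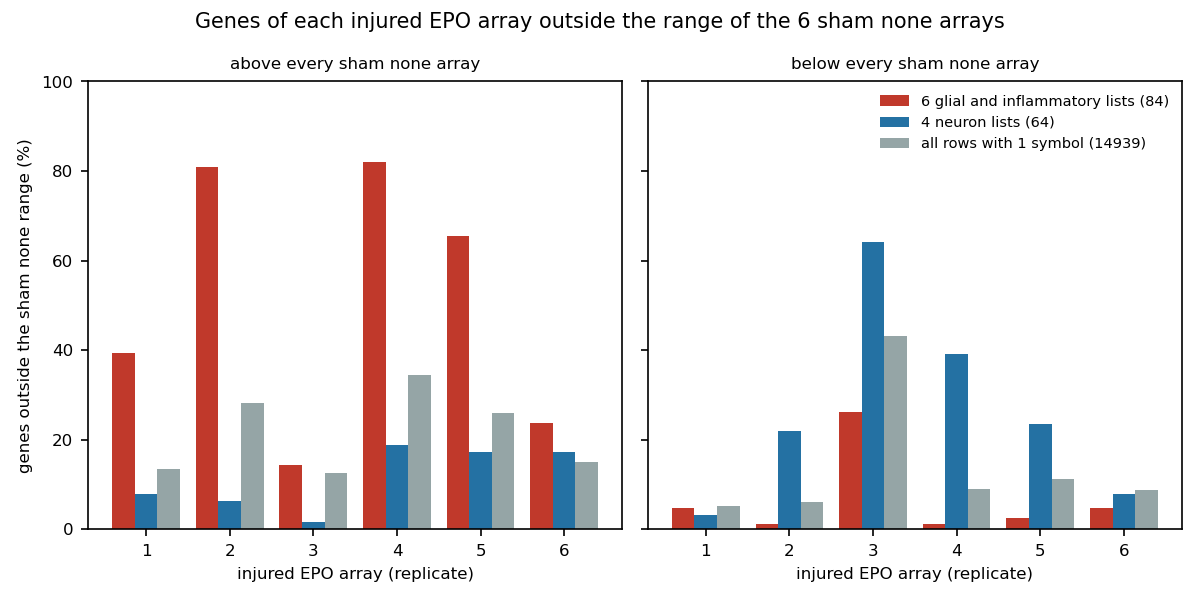
Share of genes (%) above every sham none array, and share below every sham none array, on each of the 6 injured EPO arrays, for the 84 glial and inflammatory genes, the 64 genes of 4 neuron lists and all 14939 rows with 1 symbol. The share of glial genes above is 82.1% on replicate 4 and 14.3% on replicate 3, and the share of neuron genes below is 64.1% on replicate 3 and 3.12% on replicate 1.

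Neuronal and synaptic genes had lower means in injured EPO. All 24 measured did, where 62.9% of all rows with 1 symbol had a difference above 0. The median difference was -0.16, and none passed the adjusted test. At an unadjusted p under 0.05, 3 were lower, beside 170 of the 14939 rows with 1 symbol. Grin2a, a subunit of the NMDA glutamate receptor, read 9.192, 8.798, 8.359, 8.496, 8.754 and 9.004 on injured EPO replicates 1 to 6, against 8.891, 9.244, 9.646, 9.237, 9.319 and 9.604 in sham none. Replicates 2, 3, 4 and 5 were below every sham none array, and replicates 1 and 6 were within the range. The difference was -0.56 ± 0.18 (limma adjusted p = 0.702), and -0.47 without replicate 3. The other 2 were Homer1, a scaffold protein of the synapse (-0.34 ± 0.14, and -0.24 without replicate 3), and Gria2, an AMPA receptor subunit (-0.21 ± 0.10). Snap25 and Syp, proteins of synaptic vesicle release, differed by -0.07 ± 0.11 and -0.05 ± 0.10. The 95% interval lay within 2-fold for all 24 genes.

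The order of the arrays differed for these genes. The neuronal and synaptic score was -0.00, -0.13, -0.46, -0.30, -0.15 and -0.06 on injured EPO replicates 1 to 6, against -0.14 to 0.16 in sham none. Replicate 3, near the sham none arrays on the glial scores, was the lowest. It was the lowest injured EPO array for 17 of the 24 genes (70.8%), with replicate 4 the lowest for 6 (25%). Over all rows with 1 symbol these shares were 53.4% for replicate 3 and 10.2% for replicate 4. Replicate 3 was also low over all rows, with 43.2% of the rows with 1 symbol below every sham none array, so the scaling of the arrays bears on its value. After quantile normalization the score was -0.09, -0.19, -0.23, -0.41, -0.29 and -0.07, against -0.07 to 0.06 in sham none, and replicate 4 was the lowest. The median difference of the list was then -0.19.

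Over the 4 neuron lists (neuronal and synaptic, CA pyramidal, granule and newborn neuron, and interneuron), the numbers of the 64 genes below every sham none array were 2 (3.12%), 14 (21.9%), 41 (64.1%), 25 (39.1%), 15 (23.4%) and 5 (7.81%) on injured EPO replicates 1 to 6. For all rows with 1 symbol the shares below were 5.07%, 6.14%, 43.2%, 9.04%, 11.2% and 8.7%, so on replicates 1 and 6 the neuron genes were under the share of all rows. Of 16 CA pyramidal genes 4 had a higher mean in injured EPO, with a median difference of -0.13. Fibcd1, which marks CA1, differed by -0.20 ± 0.20, and Grik4, a kainate receptor subunit, by -0.28 ± 0.14. Of 10 granule and newborn neuron genes 6 had a higher mean (60%), near the 62.9% of all rows with 1 symbol. Dcx, the microtubule protein of newborn neurons, differed by 0.09 ± 0.20. Of 14 interneuron genes 8 had a higher mean (57.1%), also near the share of all rows. Npy, the neuropeptide Y of interneurons, was 0.35 ± 0.14 higher, with 5 injured EPO arrays above every sham none array and replicate 3 below them all. Without replicate 4, which read 9.82, the difference of Npy was 0.20.

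Among other lists, the oligodendrocyte genes had a median difference of -0.21, with 4 of 16 above 0. Mag, a myelin glycoprotein, differed by -0.51 ± 0.46, a value within its spread that ran from -0.78 without injured EPO replicate 2 to -0.27 without sham none replicate 6, and Pdgfra, the receptor of oligodendrocyte precursors, by -0.33 ± 0.12. The endothelial and pericyte genes centred on -0.01, with 10 of 21 above 0. Kcnj8, a potassium channel of pericytes, was 0.47 ± 0.13 higher and Cldn5, the tight junction protein of the blood-brain barrier, 0.02 ± 0.20. Of 13 genes of cholesterol synthesis 1 had a higher mean in injured EPO, and Hmgcs1 and Cyp51, enzymes of the pathway, differed by -0.28 ± 0.09 and -0.38 ± 0.14. Of 15 cell cycle genes 14 had a higher mean, with Mcm6, part of the replicative helicase, at 0.65 ± 0.21, and at 0.54 without sham none replicate 5. The cell cycle list had a median difference of 0.27, against 0.22 for injured none minus sham none.

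Genes of EPO signalling were read for their own levels. Epor, the EPO receptor, read 5.19, 5.12, 5.10, 5.22, 5.15 and 5.40 in injured EPO, against 5.20, 4.76, 5.09, 5.18, 4.98 and 5.11 in sham none, a difference of 0.15 ± 0.10 (0.09 without sham none replicate 2). Cish and Socs3, feedback inhibitors induced by STAT5 and STAT3, differed by 0.05 ± 0.12 and 0.32 ± 0.18. Stat5a itself was 0.31 ± 0.10 higher, and the list of 15 genes had a median difference of 0.07. Of 13 iron and heme genes 9 had a higher mean in injured EPO (69.2%, near the 62.9% of all rows with 1 symbol), with a median difference of 0.06. Slc40a1, the iron exporter, differed by -0.29 ± 0.17. Hmox1, the enzyme that breaks down heme, read 5.51, 8.12, 4.90, 8.42, 6.27 and 5.43 in injured EPO, against 4.90 to 5.60 in sham none, and differed by 1.08 ± 0.42. Without injured EPO replicate 4 the difference of Hmox1 was 0.69, and without sham none replicate 5 it was 0.99. Of 15 immediate early genes 8 had a higher mean, with a median difference of 0.06 and a range of -0.37 to 1.29. Atf3, a stress-induced transcription factor with the highest value of that list, differed by 1.29 ± 0.41, with replicates 2 and 4 at 6.41 and 6.74 and replicates 1 and 3 both at 3.59. Of 15 p53 and apoptosis genes 13 had a higher mean, with a median difference of 0.21. Cdkn1a, the p53 target that halts the cell cycle, differed by 0.63 ± 0.26, and by 0.40 without injured EPO replicate 4.

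The titles carry a letter code whose meaning the labels do not give. Injured EPO has 2 arrays of code 3A, 3 of 3D and 1 of 3F, and sham none has 2 of 3D and 1 each of 3B, 3E, 3F and 3G. Within code 3D, with 3 injured EPO and 2 sham none arrays, Gfap differed by 1.34, Ccl3 by 3.60, C1qa by 1.05 and Grin2a by -0.91, and 0 rows passed the threshold. The median difference of the reactive astrocyte list there was 0.50, and that of the neuronal and synaptic list was -0.31. The codes other than 3D hold too few arrays of both groups for a value.

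Set against the labelled sham EPO mice, injured EPO differed at 3226 rows (13.9%), 1407 higher (6.05%) and 1819 lower (7.83%). Of the 84 glial and inflammatory genes 74 were lower than in labelled sham EPO past the threshold, and of the 24 neuronal and synaptic genes 20 were higher. With each array centred on its median the split over all rows was 3095 higher and 1393 lower. Gfap averaged 10.10 ± 1.17 in injured EPO and 11.31 ± 0.27 in labelled sham EPO (SD, n = 6 each), a limma difference of -1.20 ± 0.33 (SE) with an adjusted p of 0.016. Hmox1 averaged 6.44 ± 1.48 in injured EPO and 9.93 ± 0.31 in labelled sham EPO, a difference of -3.49 ± 0.42 with a limma adjusted p of 3.74e-06. Against injured none, limma called 0 of 23238 rows (0%), the smallest adjusted p was 0.539, and 1892 rows (8.14%) had an unadjusted p under 0.05. These comparisons use the same injured EPO arrays as the one with sham none. Under the other reading of the titles the counts of the comparisons with labelled sham EPO and injured none are exchanged, and the comparison with sham none is the same.

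Single injured EPO mice reached the labelled sham EPO range for some genes. For 76 of the 84 glial genes every labelled sham EPO array lay above every sham none array. Replicate 4 was within or above the labelled sham EPO range for 29 of these (38.2%), replicate 2 for 12 (15.8%), replicate 5 for 8 (10.5%), replicate 3 for 2 (2.63%), replicate 6 for 1 (1.32%) and replicate 1 for 0. Over the 1610 rows with 1 symbol that met the same condition, replicate 4 was in that range for 57.5%, replicate 2 for 36.6% and replicate 5 for 23%. Gfap was 11.62 on replicate 4 and averaged 11.31 in labelled sham EPO, while its Cd68 value of 9.80 was beside a labelled sham EPO mean of 9.97.

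**Figure D4:**
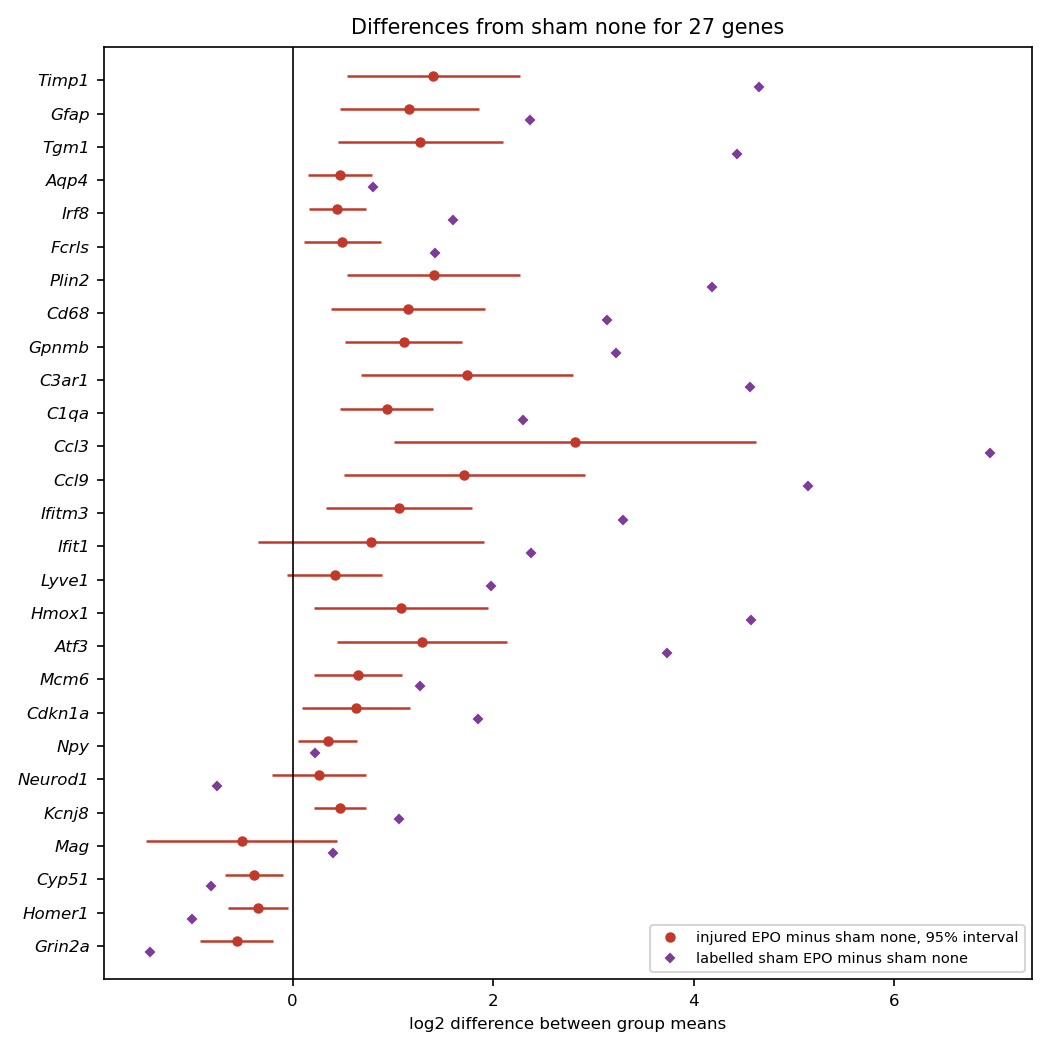
Log2 differences of 27 genes of the gene lists. Red points with bars are injured EPO minus sham none with the 95% interval, and purple diamonds are labelled sham EPO minus sham none. Ccl3 has the widest interval, 1.01 to 4.62, and Grin2a is at -0.56.

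Over all rows with 1 symbol, the 5 with the smallest p were Olfr1265, Tmem176b, C1qa, Gem and Dhrs1, of which C1qa is described above with the complement genes. Tmem176b, a membrane protein of myeloid cells, was 0.55 ± 0.12 higher in injured EPO, with a limma adjusted p of 0.582 and 5 arrays above every sham none array. Gem, a small GTP-binding protein, differed by 0.88 ± 0.21 and Dhrs1, a short-chain dehydrogenase, by 0.71 ± 0.17. Olfr1265, an olfactory receptor, averaged 2.90 in injured EPO and 3.39 in sham none and was below every sham none array on all 6 injured EPO arrays. These are low values, and the table holds no background level to set them against.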

How the data were processed

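The authors deposited a single table on the log2 scale, and the submitters' processing notes name RMA and Affymetrix Expression Console, without versions. Rows were named from the platform annotation, with 14939 rows of 1 symbol, 989 of several and 7310 unnamed. Where a gene had more than 1 row (131 genes), the row with the highest mean was used.

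Differences were estimated by limma 3.58.1 (R 4.3.3) from a model holding a mean for each of the 4 groups on all 24 arrays, which leaves 20 residual degrees of freedom (23.3 after moderation), and p-values were adjusted by Benjamini-Hochberg over 23238 rows. The members and lists were chosen with earlier results of these data known. The text names, in lists with no call, the 2 members with the largest difference, the 5 smallest p and a fixed set (Epo, Epor, Cish, Socs3, Bcl2l1, Bdnf, Gfap, Aif1, Lcn2, Hmox1, Vegfa and Eif2s3y). Some genes of that rule are left out above, and all other genes were named after their values were seen. Of the fixed set, Epo differed by 0.005 ± 0.11, Bcl2l1 by 0.07 ± 0.08, Bdnf by -0.02 ± 0.13, Vegfa by -0.07 ± 0.10 and Aif1 by 0.32 ± 0.17. Ptpn6, with the largest difference in the EPO signalling list, was 0.46 ± 0.19 higher in injured EPO. List genes were matched by symbol. In 5 simulated data sets of 23238 rows with 200 changed, 49% of rows changed 1.5-fold and 86.6% changed 2-fold were recovered in this comparison, with 6.6 false calls on average. The simulated noise was independent between rows and had the same spread in every group. In the data the SD was larger in injured EPO than in sham none for 72.2% of rows with 1 symbol. The recovered shares can therefore be too high for such rows. Precision is limited by 6 arrays per group. The median SE of a difference was 0.14. Alternatives covered normalization, dim rows, variance models, weights, the title code, Eif2s3y, the reading of the titles, arrays left out and thresholds.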

Additional observations from a re-analysis of the deposited data

Results flagged for a closer look

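Of 208 groups of 6 values examined (single genes and list scores in injured EPO and sham none), 12 (5.77%) held 1 array far from the other 5, by Dixon's test at its 95% critical value. Chance alone marks about 1 group in 20. Of these 12, 8 were low values on sham none replicate 5 and 3 were low values on injured EPO replicate 3.

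On injured EPO replicate 3, Prox1 was 6.91, against 7.89 to 8.23 on the other injured EPO arrays. The score of the granule and newborn neuron list was -0.39 there, against 0.01 to 0.20 on the others, and the median over all rows with 1 symbol was -0.19, against 0.02 to 0.12. On injured EPO replicate 4, Epo read 2.93, against 2.49 to 2.64 on the others.

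On sham none replicate 5, Ttr was 6.52 (12.67 to 12.95 on the other sham none arrays), Dynlrb2, a gene of ciliated cells, 3.62 (4.36 to 4.76), Plin2 6.05 (6.56 to 6.83), Hmox1 4.90 (5.34 to 5.60) and Mcm6 4.54 (5.07 to 5.37). The choroid plexus score was -1.85 there (-0.12 to 0.92 on the others), the ependymal score -0.51 (0.01 to 0.20) and the cell cycle score -0.34 (0.01 to 0.19).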

How the results depend on the processing

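Over 28 alternatives, the count of rows called between injured EPO and sham none was 0 in 26 of them. Some of these could give nothing but 0. An adjusted p of 0.01 and a 2-fold minimum only filter the main calls, and the other reading of the titles leaves this comparison unchanged. Leaving out each array in turn gave 0 to 1 rows, with 1 row without injured EPO replicate 3 (Tmem176b, 0.66 ± 0.10, limma adjusted p = 0.0417) and 1 without injured EPO replicate 6 (an unnamed row, adjusted p = 0.0159). The rows at an unadjusted p under 0.05 ran from 1111 to 2705 over these, 2705 being without injured EPO replicate 3, and were 2481 with weights per array, where the smallest adjusted p was 0.0873, and 1143 within code 3D. With only the arrays of the 2 groups they were 1080, and the smallest limma adjusted p was 0.982. The limma calls against labelled sham EPO, 3226, were 437 within code 3D, 2019 with only the arrays of the 2 groups, 0 under the other reading of the titles, 1920 at an adjusted p of 0.01 and 522 with at least a 2-fold difference, and 2520 to 3791 with an array left out. The calls against injured none, 0, were 3226 under the other reading of the titles.

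The cause of these shifts was not tested. The fit within code 3D also holds fewer arrays, and a stricter threshold can only lower a count. The median of the reactive astrocyte list was 0.49 after quantile normalization and 0.42 without injured EPO replicate 4, and that of the neuronal and synaptic list was -0.19 and -0.12. Of the 75 genes that the rule names, 11 changed sign in some alternative, and 1 (Tmem176b) passed the threshold in one. No paired analysis was possible because the replicate numbers follow the order of deposit and pair no mice. The table holds no background level, so no limit of detection could be set for dim rows.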

Other observations

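Of the 24 rows with 1 symbol that lay outside the sham none range on all 6 injured EPO arrays, 21 were above and 3 below, and they were picked for that pattern. Besides Gpnmb, Clcf1 and Il1rn, those above include P2ry6, the nucleotide receptor that triggers microglial phagocytosis, which read 5.51, 6.34, 5.59, 6.26, 6.06 and 5.45 on injured EPO replicates 1 to 6, against 5.17 to 5.44 in sham none (0.57). Serpinf2, the antiplasmin gene, read 4.47, 4.64, 4.64, 6.03, 5.09 and 4.47, against 3.96 to 4.40 in sham none (0.69). Laptm5, a lysosomal protein of blood and microglial cells, differed by 0.37, and Ankrd37, a hypoxia-induced gene, by 0.28. That replicate 3 lay above sham none for P2ry6 and Ankrd37 follows from how the rows were picked, as for all 21. Ebf4, Zfp617 and Olfr1265 lay below.

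H19, a maternally expressed noncoding RNA of the fetus and newborn, had one of the largest differences, 1.68 ± 0.50, with 6.91, 8.23, 5.95, 7.66, 6.74 and 4.53 on injured EPO replicates 1 to 6, against 4.01 to 6.19 in sham none. Its limma adjusted p was 0.681. AY036118 had a difference of -1.65 ± 0.63, with 7.60 on injured EPO replicate 4 and 8.66 on replicate 6, and 11.42 to 11.89 on the other injured EPO arrays. Both genes were named after their values were seen.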
